A study of Mus musculus with 32 samples.

Results

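The angiogenic endothelial genes followed here are 10 genes, Kdr, Flt1, Tek, Tie1, Angpt2, Esm1, Apln, Clec14a, She and Emp1, out of 33280 genes counted in the stroke experiment. They were taken by gene name from both count tables, and they had been selected on earlier results of these same libraries, so that their hemisphere differences and their calls are given as a description and not as independent evidence. All 10 passed the filter on low counts in whole tissue and in sorted cells. The experiment used wild-type mice of both sexes. BLZ945, an inhibitor of the macrophage survival receptor CSF1R, was given orally to 4 mice (C2, C3, C4 and D1) at 200 mg per kg body weight daily for 7 days, and 4 control mice (CTL: A2, A3, A4 and B1) received vehicle. All 8 mice had a thromboembolic stroke in the territory of the middle cerebral artery 8 weeks later, so no library comes from a mouse without stroke. On day 1 after stroke, whole tissue and sorted CNS-associated macrophages (CAMs) of the stroke side (ipsilateral) and of the opposite side (contralateral) were sequenced, which gave 32 libraries.

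Kdr (VEGFR2) and Flt1 (VEGFR1) are the endothelial receptors for vascular endothelial growth factor, of which the first carries the main growth signal and the second binds the ligand tightly and can act as a decoy. Tek (Tie2) is the receptor of the angiopoietins and Tie1 its co-receptor, while Angpt2 is a ligand that endothelial cells store and release when vessels are destabilised. Esm1 and Apln are secreted products of endothelial tip cells, Clec14a is an endothelial surface glycoprotein, She an adaptor protein, and Emp1 a membrane protein that is not restricted to endothelium and is also known from reactive astrocytes. Monocytes and macrophages can express Flt1, a subset of macrophages expresses Tek, and Apln is also made outside vessels, so none of these 3 marks endothelium alone.

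The ipsilateral CAM libraries of A3 and C2 are described in the sample labels as having degraded RNA and were left out, which leaves 3 ipsilateral and 4 contralateral CAM libraries per treatment. For the tissue of A3, the sample labels and the names of the table's columns assign opposite hemispheres, and the labels were followed, so tissue results are given also with the hemispheres of A3 exchanged and without A3. The libraries used held 9288717 to 12781505 counts in tissue and 7397393 to 11081409 in CAMs. Levels are CPM, counts relative to the library's total after scaling by TMM, a normalization that takes most genes as equal between libraries, and tissue and CAMs were scaled separately. Within each group, values are listed in the order A2, A3, A4, B1 for CTL and C2, C3, C4, D1 for BLZ945, without A3 and C2 in ipsilateral CAMs.

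The sort took CD45+, CD11b+ and CD206+ cells without Ly6C, Ly6G and CD11c, and no marker against endothelium is named in its description. The CAM libraries held the macrophage receptor Mrc1 (CD206), on which the cells were gated, at 344 to 1643 CPM contralaterally and 1146 to 2819 CPM ipsilaterally. They also held RNA of 6 microglial markers, summing to 5583 to 17073 CPM contralaterally and 10267 to 26800 CPM ipsilaterally, against 6530 to 17137 and 16252 to 25379 CPM for 10 border macrophage markers. Endothelial RNA was present as well. The summed level of 19 pan-endothelial genes, none of which is among the 10, was 2527 to 8370 CPM in contralateral CAMs and 393 to 876 CPM in ipsilateral CAMs, with no overlap between the hemispheres. In whole tissue the same sum was 527 to 672 CPM contralaterally and 577 to 785 CPM ipsilaterally.

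Promoter sequences of 4 of the genes are shown because they stand for the patterns described below, with Flt1 and Clec14a for the genes called down in CAMs in each treatment, Tek as a receptor not called in tissue, and Emp1 as the gene called up in tissue. Each is the 250 bases before the gene's start, from RefSeq on GRCm38.p6, 5′ to 3′ on the gene's own strand. Capitals mark every match, on either strand, to the ETS cores CCGGAA or CAGGAA, the hypoxia response core ACGTG, the AP-1 motif TGANTCA, the GATA motif AGATAA or the box TATAAA. ETS factors include ERG, a regulator of endothelial genes. The windows are chr5:147726012-147726261, minus strand for Flt1, chr4:94739039-94739288, plus strand for Tek, chr12:58269259-58269508, minus strand for Clec14a and chr6:135362681-135362930, plus strand for the first of 2 listed starts of Emp1.
Flt1: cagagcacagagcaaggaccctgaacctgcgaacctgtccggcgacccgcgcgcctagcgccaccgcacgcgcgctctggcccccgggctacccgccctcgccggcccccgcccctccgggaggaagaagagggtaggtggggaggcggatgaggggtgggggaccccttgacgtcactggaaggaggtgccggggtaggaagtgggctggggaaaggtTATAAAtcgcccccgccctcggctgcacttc
Tek: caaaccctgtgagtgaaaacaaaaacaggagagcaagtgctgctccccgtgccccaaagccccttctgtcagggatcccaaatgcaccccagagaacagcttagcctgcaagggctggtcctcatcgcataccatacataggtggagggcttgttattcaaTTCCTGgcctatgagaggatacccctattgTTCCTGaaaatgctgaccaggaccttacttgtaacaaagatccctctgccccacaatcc
Clec14a: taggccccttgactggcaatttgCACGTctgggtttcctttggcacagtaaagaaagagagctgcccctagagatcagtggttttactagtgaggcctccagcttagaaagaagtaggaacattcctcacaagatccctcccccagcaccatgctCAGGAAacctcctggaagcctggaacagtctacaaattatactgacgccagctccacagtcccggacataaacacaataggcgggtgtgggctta
Emp1: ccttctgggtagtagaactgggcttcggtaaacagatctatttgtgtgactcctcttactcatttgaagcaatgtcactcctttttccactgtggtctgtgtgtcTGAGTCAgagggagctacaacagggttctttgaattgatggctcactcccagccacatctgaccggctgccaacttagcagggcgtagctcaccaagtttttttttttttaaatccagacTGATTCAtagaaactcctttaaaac

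Promoters were found for 9 of the 10 genes. CAGGAA stood in the promoters of 5 genes (Tek, Tie1, Esm1, Apln and Clec14a), against 25.7% of all 32851 promoters of this length, and CCGGAA in that of 1 gene (Kdr), against 12% of all. ACGTG was found in 2 genes (Clec14a and She; 16.6% of all promoters) and TATAAA in 1 (Flt1; 12.4% of all). TGANTCA was found only in the first promoter of Emp1, with 2 matches, against 6.75% of all promoters. AGATAA was in none of them and in 9.99% of all promoters. No motif overlapped another in the 4 windows shown, and a match describes the letters of the window only.

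In whole tissue, Emp1 and Angpt2 were higher on the stroke side in every mouse, as was She by a smaller amount. Kdr and Clec14a were higher there in all but 1 mouse each. The calls below do not pair the hemispheres of a mouse unless stated. The mean level of Emp1 was 4.23 times its contralateral level in CTL mice and 7.15 times in BLZ945 mice, and that of Angpt2 was 3.23 and 3.60 times. A gene was called at an adjusted p under 0.05 in edgeR's quasi-likelihood test over 18968 genes with a log2 fold change beyond 0.59. Emp1 was the 1 gene of the 10 called up in CTL mice and the 1 called up in BLZ945 mice, where 0.443% and 1.12% of all genes were called up. Emp1 and Angpt2 were the 2 called up over both treatments, where 1.93% of all genes were. None was called down. The receptors Flt1, Tek and Tie1 and the ligand Apln had log2 fold changes between -0.08 and 0.17 in each treatment. With the hemispheres of A3 exchanged, 0, 6 and 1 genes of the whole table were called in CTL mice, in BLZ945 mice and in the average, none of them among the 10. With A3 exchanged and the hemispheres compared within each animal (the mouse as a block), 0, 185 and 146 genes were called. Of the 10 genes, 0, 1 and 1 were among them.

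Emp1 was the gene called in each treatment. Contralateral tissue held 2.62, 2.46, 2.17 and 1.85 CPM in CTL mice and 1.39, 2.72, 2.42 and 1.97 CPM in BLZ945 mice. Ipsilateral tissue held 11.5, 8.66, 6.46 and 11.9 CPM in CTL mice and 25.9, 7.82, 10.9 and 16.1 CPM in BLZ945 mice. Every ipsilateral library was above every contralateral library, and BLZ945 mouse C2 held the highest value. Group means were 2.27 ± 0.339 CPM against 9.61 ± 2.54 CPM in CTL mice and 2.12 ± 0.577 CPM against 15.2 ± 7.91 CPM in BLZ945 mice (SD, n = 4 mice). The log2 fold change was 2.07 (SE 0.33, edgeR adjusted p = 0.00535) in CTL and 2.83 (SE 0.34, adjusted p = 2.0e-04) in BLZ945 mice. With the hemispheres of A3 exchanged the CTL value was 1.07 (edgeR adjusted p = 1) and the BLZ945 call was lost too (adjusted p = 0.0703). A3 is a CTL mouse, so its exchange reaches the BLZ945 test only through the spread shared by the 4 groups. With the mouse as a block and A3 exchanged, 1 of the 10 genes was still called in BLZ945 mice, and it was neither Angpt2 nor Kdr. In CTL mice the call was also lost without A2, A3 or B1, at log2 fold changes of 2.05, 2.16 and 1.87 and edgeR adjusted p of 0.0519, 0.0570 and 0.130. The astrocyte gene Gfap rose as well, by 1.55 in CTL and 1.88 in BLZ945 mice on the log2 scale, while the other 6 of 7 astrocyte markers were not called and mostly had values below 0. In BLZ945 mice 5 of 7 were below 0 and 5 of 7 had an unadjusted p under 0.05, with Gja1, an astrocyte gap junction gene, at -0.43 (SE 0.14). The 7 together summed to 5126 to 6356 CPM contralaterally and 4919 to 6319 CPM ipsilaterally. Its part in the Emp1 difference was not tested.

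Angpt2, the vessel-destabilising ligand, was higher on the stroke side in all 8 mice. Contralateral libraries held 3.41, 1.87, 0.928 and 3.88 CPM in CTL mice and 3.32, 1.15, 1.30 and 3.18 CPM in BLZ945 mice. Ipsilateral libraries held 5.39, 7.63, 3.10 and 16.5 CPM in CTL and 11.6, 3.51, 10.3 and 6.79 CPM in BLZ945 mice. The hemispheres did not overlap in BLZ945 mice, and in CTL mice the lowest ipsilateral library (A4) lay below 2 contralateral ones, with B1 standing highest. The log2 fold change was 1.68 (SE 0.52, edgeR adjusted p = 0.376) in CTL mice, 1.84 (SE 0.54, adjusted p = 0.127) in BLZ945 mice and 1.76 (SE 0.38, adjusted p = 0.0131) in their average. With the mouse as a block, which compares the hemispheres within each animal, Angpt2 was called in each treatment, at edgeR adjusted p of 0.00303 in CTL and 5.7e-04 in BLZ945 mice. The average call was lost with A3 exchanged (log2 fold change 1.30, adjusted p = 0.285), without A3 (adjusted p = 0.0532) and without C4 (adjusted p = 0.0593). In the blocked fit without both libraries of A3, Angpt2 was called in CTL (adjusted p = 0.0414). In the blocked fit with A3 exchanged, Angpt2 was not called in CTL (log2 fold change 0.61, edgeR adjusted p = 1) or in BLZ945 mice (adjusted p = 0.0824).

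**Figure D1:**
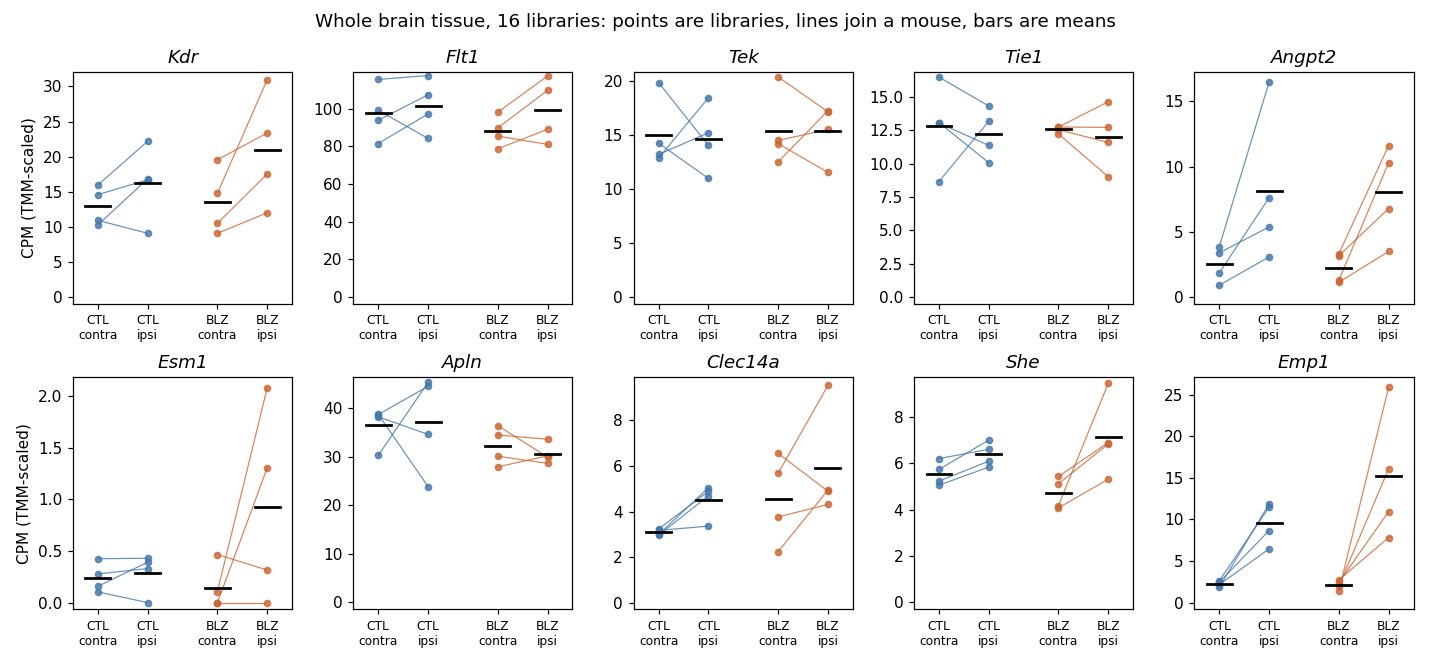
Each panel plots 1 gene in whole tissue, with level in CPM on the vertical axis, hemisphere and treatment on the horizontal axis, a point per library, a line per mouse and a bar at the group mean (n = 4). Emp1 sits above its contralateral values in every ipsilateral library and Angpt2 does so within every mouse, while Tek, Tie1 and Apln cross in both directions.

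Of the growth factor receptors in tissue, Kdr was higher ipsilaterally in 3 of 4 CTL mice and 4 of 4 BLZ945 mice. It held 10.3, 15.98, 10.9 and 14.6 CPM contralaterally and 16.9, 22.2, 9.11 and 16.7 CPM ipsilaterally in CTL mice. In BLZ945 mice it held 14.8, 9.09, 10.5 and 19.6 CPM contralaterally and 30.98, 12.03, 17.6 and 23.4 CPM ipsilaterally. The groups overlapped in both treatments, with a ratio of 2.09 within mouse C2 and of 0.833 within A4. The log2 fold change was 0.32 (SE 0.30) in CTL and 0.64 (SE 0.30) in BLZ945 mice, neither of them called. With the mouse as a block, Kdr was called in BLZ945 mice (log2 fold change 0.62, edgeR adjusted p = 0.0244), and in that fit its adjusted p was 0.0325 without both libraries of A3 and 0.102 with A3 exchanged, where the call was lost.

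Flt1, the second VEGF receptor, was the best counted of the 10 in tissue, with 753 to 1371 counts per library. Its level was 97.5 ± 14.1 CPM contralaterally and 102 ± 14.3 CPM ipsilaterally in CTL mice, and 88.01 ± 8.14 CPM and 99.3 ± 17.02 CPM in BLZ945 mice (SD, n = 4). These differences of 0.06 (SE 0.13) and 0.17 (SE 0.13) on the log2 scale were within the spread between mice. Tek held 15.1 ± 3.26 CPM against 14.7 ± 3.09 CPM in CTL mice and 15.4 ± 3.44 CPM against 15.4 ± 2.68 CPM in BLZ945 mice, higher ipsilaterally in 2 of 4 mice each. Tie1 was lower ipsilaterally in 3 of 4 mice of each treatment, at log2 fold changes of -0.07 (SE 0.18) and -0.07 (SE 0.18). Of the angiopoietin axis in tissue, the ligand Angpt2 was thus called in the average and neither receptor was, a difference between genes that was not tested.

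Among the tip cell products, Apln showed no common direction in tissue. It was higher ipsilaterally in 2 of 4 CTL and 1 of 4 BLZ945 mice, with log2 fold changes of 0.02 (SE 0.16) and -0.08 (SE 0.16). Esm1 was close to undetected, with 69 counts over all 16 tissue libraries. Ipsilateral BLZ945 tissue held 22, 13, 3 and 0 counts and contralateral BLZ945 tissue 1, 0, 5 and 0 counts, so that 2 mice (C2 and C3) hold most counts behind the fitted log2 fold change of 2.57 (SE 1.06, edgeR adjusted p = 0.363). In CTL tissue no library exceeded 5 counts of Esm1, and a difference was not detectable at this depth.

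Clec14a and She were not called in tissue. Clec14a held 3.17, 3.23, 2.99 and 2.96 CPM contralaterally and 3.36, 4.89, 5.04 and 4.70 CPM ipsilaterally in CTL mice, where every ipsilateral value lay above every contralateral one. In BLZ945 mice it held 5.68, 3.76, 2.23 and 6.55 and 9.54, 4.31, 4.94 and 4.89 CPM, with D1 lower on the stroke side. Its log2 fold change was 0.54 (SE 0.31) in CTL and 0.38 (SE 0.30) in BLZ945 mice. She was higher ipsilaterally in 8 of 8 mice, at log2 fold changes of 0.20 (SE 0.18) in CTL and 0.60 (SE 0.18, edgeR adjusted p = 0.144) in BLZ945 mice. With A3 exchanged, the average log2 fold changes of Kdr, Clec14a and She were 0.33, 0.30 and 0.37, against 0.48, 0.46 and 0.40 with the labels.

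Other genes of the pathway in tissue were taken from lists set up beside the 10, which were likewise drawn up with earlier results known. Of 8 measured ligands of the VEGF, angiopoietin and apelin systems, none was called in any hemisphere comparison, and Vegfa, the main hypoxia-driven ligand of Kdr, had log2 fold changes of 0.00 (SE 0.15) in CTL and 0.11 (SE 0.15) in BLZ945 mice. Of the 5 receptors, co-receptors and phosphatase, Flt4, the receptor of lymphatic and some blood vessels, was the 1 called up over both treatments (0.66, adjusted p = 0.0227 in edgeR). The 15 Notch and guidance genes of sprouting held no call. Of 16 tip cell genes, none was called in CTL mice and 3 were called up in BLZ945 mice and in the average, namely the collagen IV chains Col4a1 (0.84 in the average) and Col4a2 (0.61) and the urokinase receptor Plaur (2.26), which myeloid cells also express. Of 9 CLEC14A partners and surface glycoproteins, Cd93 was called up in each treatment (0.97 and 1.31) and Thbd in BLZ945 mice (1.11). The median log2 fold changes of these 5 lists in the average ran from -0.05 for the ligands to 0.37 for the glycoproteins, against -0.01 over all genes.

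Of the 19 pan-endothelial genes in tissue, none was called in CTL mice and 3 were called up in BLZ945 mice and in the average. These were the junction genes Pecam1 (0.66 in the average, adjusted p = 0.00424 in edgeR) and Cdh5 (0.76, adjusted p = 0.00253) and the endothelial surface gene Ecscr (1.11), while the tight junction gene Cldn5 had a value of 0.14 (SE 0.13). The median of the 19 genes was 0.14 in the average, with 13 values above 0 and 6 below. In BLZ945 mice 12 were above 0 and 7 below. There Slco1a4, Itm2a and Mfsd2a were lower ipsilaterally in 4 of 4 mice, at 0.781, 0.781 and 0.726 times their contralateral means. Scaled to the summed counts of these 19 genes in place of TMM, Emp1 and Angpt2 had log2 fold changes of 2.26 and 1.57 in the average. In bulk RNA, a change in the number of cells of a type and a change in RNA per cell cannot be told apart.

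None of the 10 genes was called between BLZ945 and CTL mice in tissue. No gene of the table was called in edgeR in the interaction of treatment and hemisphere, in ipsilateral tissue or in contralateral tissue between treatments (0% in each of the 3 comparisons), with 386, 858 and 616 genes at an unadjusted p under 0.05. DESeq2 called 0, 1 and 0 genes, none of the 10. Emp1 had the lowest unadjusted p of the 10 in ipsilateral tissue, at 0.66 (SE 0.29) log2 higher in BLZ945 than in CTL mice (edgeR adjusted p = 0.958). The groups overlapped, with 7.82 to 25.9 CPM in BLZ945 and 6.46 to 11.9 CPM in CTL mice. The interaction of Emp1 was 0.76 (SE 0.47) and that of Angpt2 0.17 (SE 0.74), so that a difference of 1 log2 unit between the treatments' Angpt2 responses lies within 2 SE of the estimate.

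In the CAM libraries most of the 10 genes were lower on the stroke side. Together they summed to 321 to 874 CPM in contralateral libraries and to 42.5 to 91.05 CPM in ipsilateral ones, with no overlap. Calls over 18297 genes were 4 down in CTL mice (Kdr, Flt1, Tie1 and Clec14a), where 2.36% of all genes were called down, and 8 down in BLZ945 mice, where 4.41% were. The 8 were all but Esm1 and Emp1. The average of both treatments called the same 8 down, beside 11.1% of all genes, and none of the 10 was called up. All CAM genes together had a median log2 fold change of -0.11 in CTL, -0.15 in BLZ945 mice and -0.16 in the average. With the mouse as a block, which rests on the 3 mice per treatment with both hemispheres, 4 (Flt1, Tek, Tie1 and Clec14a) were called in CTL and 4 (Flt1, Tek, Tie1 and She) in BLZ945 mice. In BLZ945 mice 5, 4 and 3 genes were called without C3, C4 and D1, and Flt1, Tie1 and She were called each time. The whole table held 350, 270 and 590 calls in these 3 fits, against 1027 with all mice. With the 2 degraded libraries added, 2 were called in CTL (Flt1 and Clec14a) and 6 in BLZ945 mice (without Kdr and Angpt2).

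Endothelial RNA at large was lower in the same libraries. Of the 19 pan-endothelial genes, 13 were called down in CTL mice, 17 in BLZ945 mice and 18 in the average, with median log2 fold changes of -3.33 in CTL and -4.34 in BLZ945 mice with Erg, at 1 count or fewer in each ipsilateral library, entered at its bound. Cldn5 was 163 to 557 CPM contralaterally and 5.90 to 40.9 CPM ipsilaterally, and Pecam1 111 to 283 and 7.03 to 37.5 CPM. The summed level of 12 mural cell markers was 1066 to 5225 CPM contralaterally and 72.9 to 344 CPM ipsilaterally (10 of 12 called down in the average). Astrocyte markers (6 of 7 called down), oligodendrocyte markers (6 of 6), neuron markers (3 of 8), choroid plexus markers (3 of 5) and red blood cell markers (2 of 3) were lower too, while 9 of 10 border macrophage markers and 2 of 6 microglial markers were called up. The choroid plexus markers summed to 24.5 to 37595 CPM contralaterally and 0.502 to 1511 CPM ipsilaterally. Fibroblast markers (0 of 6 called in the average) and neutrophil markers (0 of 6) overlapped between the hemispheres. Fibroblast markers summed to 38.3 to 432 CPM contralaterally and 27.3 to 474 CPM ipsilaterally, and neutrophil markers to 85.6 to 2913 and 104 to 747 CPM. None of the 19 endothelial genes was at 0 counts over a whole group. The part of these cell types in the differences of the 10 genes was not tested.

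**Figure D2:**
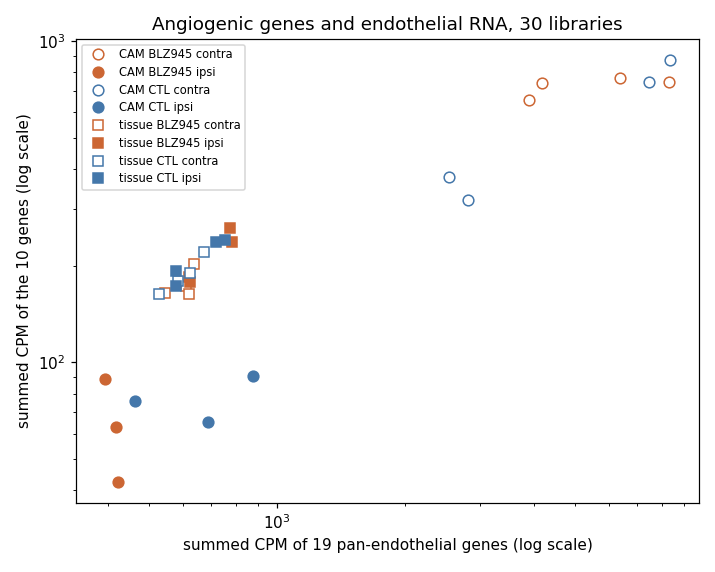
Each point is 1 of 30 libraries, with the summed CPM of 19 pan-endothelial genes on the horizontal and the summed CPM of the 10 genes on the vertical axis, both on log scales, squares for tissue, circles for CAMs, filled for ipsilateral, open for contralateral, blue for CTL and orange for BLZ945. Contralateral CAMs lie at the upper right from 2527 endothelial CPM upward, ipsilateral CAMs at the lower left up to 876 CPM, and the tissue libraries of both hemispheres between 527 and 785 CPM.

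Both VEGF receptors were called down in CAMs in each treatment. Flt1 held 143, 378, 313 and 145 CPM contralaterally and 17.1, 29.4 and 15.1 CPM ipsilaterally in CTL mice. In BLZ945 mice it held 215, 241, 283 and 218 CPM contralaterally and 8.04, 3.01 and 6.38 CPM ipsilaterally. The lowest contralateral library was more than 4 times the highest ipsilateral one. The log2 fold changes of -3.58 (SE 0.43, edgeR adjusted p = 0.00335) and -5.36 (SE 0.47, adjusted p = 4.7e-05) ranked 1 and 3 by p among all genes. Flt1 was called in the blocked fit in both treatments (adjusted p = 0.00147 and 5.6e-05 in edgeR).

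Kdr was called down under TMM, and when scaled to endothelial genes its value was -0.14 in CTL and 0.93 in BLZ945 mice, neither called. Contralateral CAMs held 8.75, 80.7, 58.7 and 56.2 CPM in CTL and 64.7, 101, 39.8 and 61.5 CPM in BLZ945 mice. Ipsilateral CAMs held 5.14, 7.39 and 5.79 CPM in CTL and 2.92, 15.6 and 11.8 CPM in BLZ945 mice. Within each treatment the hemispheres did not overlap. The contralateral library of A2 stood close to the ipsilateral CTL ones and below the ipsilateral BLZ945 libraries of C4 and D1. The log2 fold change was -3.06 (SE 0.67, edgeR adjusted p = 0.0253) in CTL and -2.72 (SE 0.65, adjusted p = 0.0254) in BLZ945 mice. Both calls were lost with the mouse as a block (adjusted p = 0.150 and 0.0506 in edgeR). The CTL call was also lost without A3, A4 or B1 (adjusted p of 0.0733, 0.114 and 0.119 in edgeR), and the BLZ945 call without C3, C4 or D1 (0.150, 0.0612 and 0.0834).

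Of the angiopoietin axis in CAMs, Tie1 was called down in each treatment, and its partner Tek and the ligand Angpt2 in BLZ945 mice. Tie1 held 33.3, 77.02, 70.98 and 25.02 CPM contralaterally and 3.01, 6.74 and 1.72 CPM ipsilaterally in CTL mice. In BLZ945 mice it held 53.6, 90.3, 90.2 and 49.1 CPM contralaterally and, ipsilaterally, 0, 4 and 0 counts. Its log2 fold change was -3.76 (SE 0.67, edgeR adjusted p = 0.00953) in CTL mice and -8.70 (SE 0.93, adjusted p = 2.6e-04) in BLZ945 mice, where it rests on 4 ipsilateral counts in all. Tek, the signalling receptor of the pair, was called in BLZ945 mice (-4.95, adjusted p = 0.0207 in edgeR) but not in CTL mice (-3.78, adjusted p = 0.0715). It held 25.02, 138, 187 and 45.4 CPM contralaterally and 1.00, 14.8 and 5.79 CPM ipsilaterally in CTL mice, a spread of more than 7 times within each group. With the mouse as a block Tek was called in CTL mice as well (adjusted p = 0.0329 in edgeR), and without C4 or D1 its BLZ945 call was lost (adjusted p of 0.114 and 0.0798).

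Angpt2, which was higher on the stroke side in tissue, was lower there in CAMs in all 6 mice with both libraries. It held 19.3, 37.7, 13.8 and 25.5 CPM contralaterally and 0.125, 4.15 and 0.536 CPM ipsilaterally in CTL mice. In BLZ945 mice it held 51.9, 26.97, 32.2 and 48.7 CPM contralaterally and 4.39, 0 and 0 CPM ipsilaterally, with 2 libraries at 0. The log2 fold change was -3.91 (SE 1.26, edgeR adjusted p = 0.110) in CTL and -4.77 (SE 1.31, adjusted p = 0.0454) in BLZ945 mice, and the latter call was lost with the mouse as a block (adjusted p = 0.0549). It was also lost without C2, C4, D1, A3 or B1 (edgeR adjusted p of 0.0861, 0.165, 0.131, 0.0572 and 0.0591).

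Esm1 divided the CAM libraries in another way. Contralateral CAMs of BLZ945 mice held 22, 122, 119 and 19 counts and those of CTL mice 0, 1, 0 and 0, while ipsilateral CAMs held 1, 0 and 0 counts in CTL and 0, 0 and 4 in BLZ945 mice. Esm1 was thus found in all 4 contralateral BLZ945 libraries and at 4 counts or fewer in the 10 others. In contralateral CAMs the endothelial sum was 2527 to 8370 CPM in CTL and 3892 to 8305 CPM in BLZ945 mice. In the same libraries choroid plexus markers summed to 1421 to 37595 CPM in BLZ945 and 24.5 to 9048 CPM in CTL mice, and neutrophil markers to 85.6 to 2913 CPM and 120 to 552 CPM, with overlapping ranges. Plvap, a gene of fenestrated vessels, had means of 44.6 CPM in BLZ945 and 1.62 CPM in CTL mice. Their part in the Esm1 counts was not tested. The fitted difference between treatments in contralateral CAMs had an unadjusted p of 5.1e-04 and an adjusted p of 0.759 in edgeR, and was called by DESeq2 (adjusted p = 0.00225). With every CTL library at or under the floor of 3 counts, no fold is given between hemispheres of CTL mice. Apln, the other tip cell product, was at 0 counts in all 3 ipsilateral BLZ945 libraries against 20.8, 13.1, 18.1 and 4.51 CPM contralaterally, at least 40.3-fold lower when the floor of 3 counts per library stands in for 0. In CTL mice Apln held 9.59, 37.7, 26.2 and 6.45 CPM contralaterally and 21.3, 0 and 1.39 CPM ipsilaterally, and A2 was higher on the stroke side. The BLZ945 call of Apln was lost without C3, C4 or D1 (edgeR adjusted p of 0.0944, 0.112 and 0.0619) and with the mouse as a block (0.0548).

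Clec14a and She reached 0 in opposite treatments. Clec14a had no count in the 3 ipsilateral CTL libraries, against 23.1, 69.2, 23.2 and 28.4 CPM contralaterally, at least 99.3-fold lower. In BLZ945 mice it fell from 55.8, 59.2, 66.5 and 44.2 CPM contralaterally to 7.43, 0 and 4.63 CPM ipsilaterally (log2 fold change -3.80, SE 0.91, edgeR adjusted p = 0.0290). This call was lost without C2, C3 or D1 (edgeR adjusted p of 0.0549, 0.0831 and 0.0942) and with the mouse as a block (0.0600). She had no count in the 3 ipsilateral BLZ945 libraries, against 56.6, 38.8, 42.3 and 15.3 CPM contralaterally, at least 109-fold lower. In CTL mice She was lower ipsilaterally in 3 of 3 mice but was not called, at 17.4, 30.4, 35.9 and 9.07 CPM against 11.5, 0 and 2.04 CPM. Libraries with 0 counts of one gene held counts of others, such as Flt1 at 24 to 227 counts in every ipsilateral library.

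Emp1 was not called in CAMs in either treatment. Contralateral libraries held 41.9, 25.4, 14.9 and 36.8 CPM in CTL and 139, 48.6, 36.1 and 106 CPM in BLZ945 mice. Ipsilateral libraries held 31.7, 2.85 and 43.3 CPM in CTL and 9.51, 43.8 and 65.4 CPM in BLZ945 mice. The hemispheres overlapped in both treatments, and 1 of 3 mice in each was higher on the stroke side. The log2 fold change of -0.19 (SE 0.73) in CTL and -1.06 (SE 0.75) in BLZ945 mice was within the spread between mice.

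**Figure D3:**
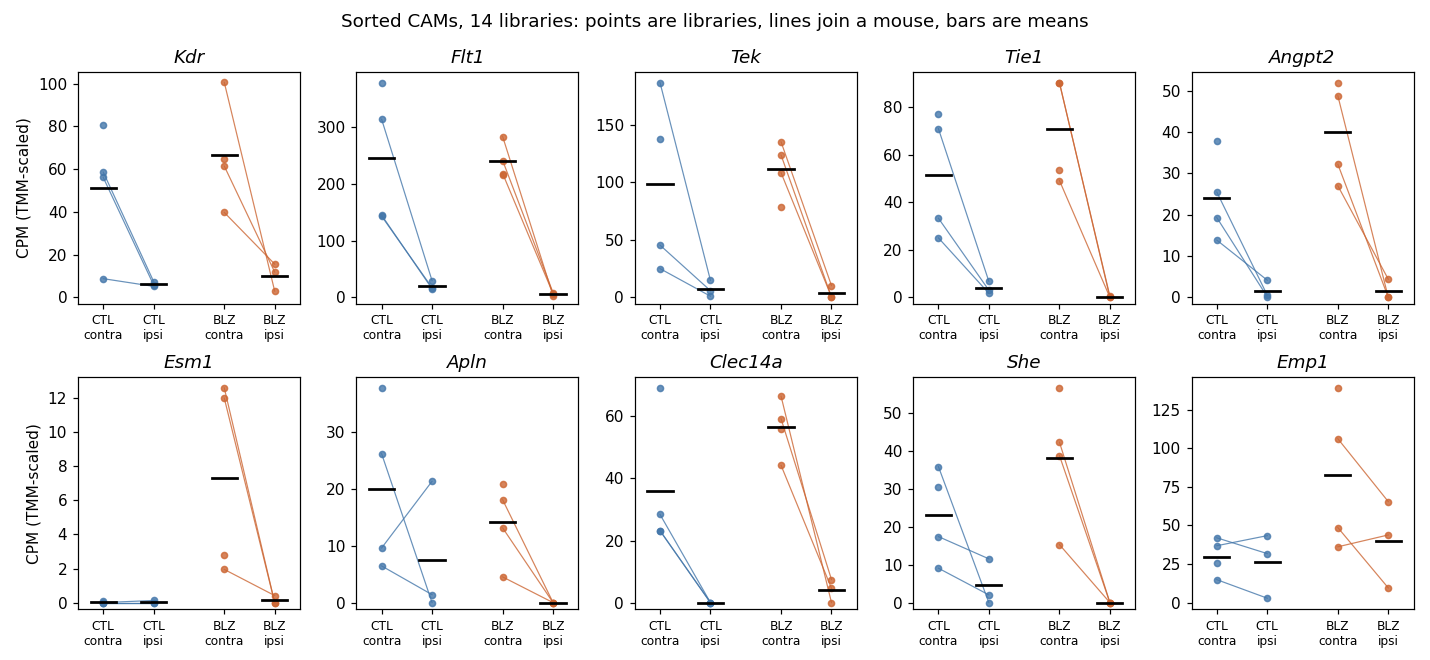
Each panel plots 1 gene in sorted CAMs, with level in CPM on the vertical axis, hemisphere and treatment on the horizontal axis, a point per library, a line per mouse with both libraries and a bar at the group mean (n = 4 contralateral, 3 ipsilateral). The ipsilateral points of Flt1, Tie1, Tek and Clec14a lie near 0, and those of Emp1 spread from 2.85 to 65.4 CPM. Esm1 is seen in contralateral BLZ945 libraries.

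Scaled to the summed counts of the 19 pan-endothelial genes, the differences within CAMs took other sizes. Kdr, called down under TMM, had values above 0, 0.93 in BLZ945 mice and 0.39 in the average (edgeR adjusted p = 0.540), not called. In the average, Tek was -0.91 and Angpt2 -1.26 (adjusted p = 0.247 and 0.259 in edgeR), no longer called. Flt1 at -1.14 (adjusted p = 0.00886 in edgeR) and Tie1 at -2.93 (adjusted p = 0.00101) fell on this scale too, as did Clec14a and She, each of which has 0 counts in all ipsilateral libraries of 1 treatment, and Emp1 rose (2.4, adjusted p = 0.00168). In CTL mice alone, Flt1 (-0.63) and Tie1 (-0.84) were not called on this scale. On it, 11599 of all 18297 genes were called up and 396 down in the average, so most genes of the table were called up as Emp1 was.

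**Figure D4:**
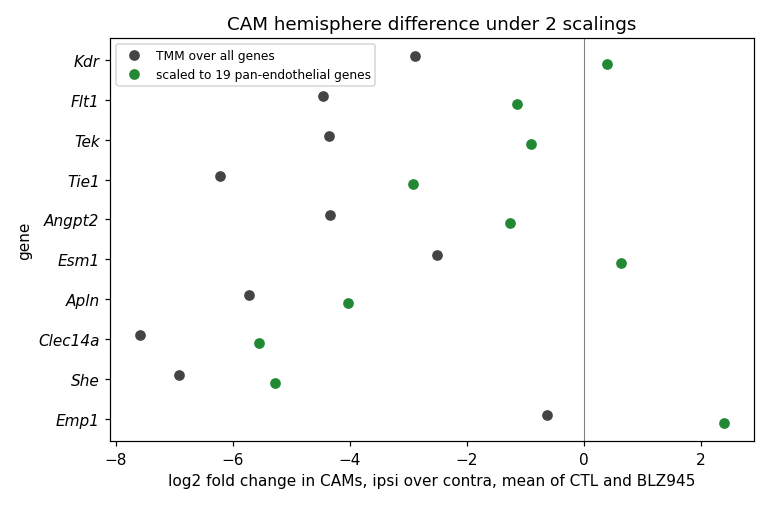
The horizontal axis gives the log2 fold change in CAMs, ipsilateral over contralateral and averaged over CTL and BLZ945 mice, for each of the 10 genes on the vertical axis, under TMM (grey) and scaled to 19 pan-endothelial genes (green). Under TMM the points lie below 0, and under the endothelial scaling Kdr (0.39, not called) and Emp1 lie above 0. The points of Esm1 rest in part on CTL libraries at 0 or 1 count and give no direction.

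Both tables are set side by side in the plot of fold changes by gene. Contralaterally, CAMs held higher mean levels than tissue for 8 of the 10 genes in both treatments, from 2.51 times for Flt1 to 13.1 times for Emp1 in CTL mice and from 2.72 times for Flt1 to 38.8 times for Emp1 in BLZ945 mice. Apln was lower in CAMs than in tissue (0.547 and 0.437 times), and no ratio is given for Esm1, which had 5 counts or fewer in every contralateral tissue library. The pan-endothelial gene Cldn5 was 10.1 and 10.9 times its tissue level in contralateral CAMs. These ratios were not tested, since the tables were scaled separately, and the share of all genes higher in CAMs was not counted.

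**Figure D5:**
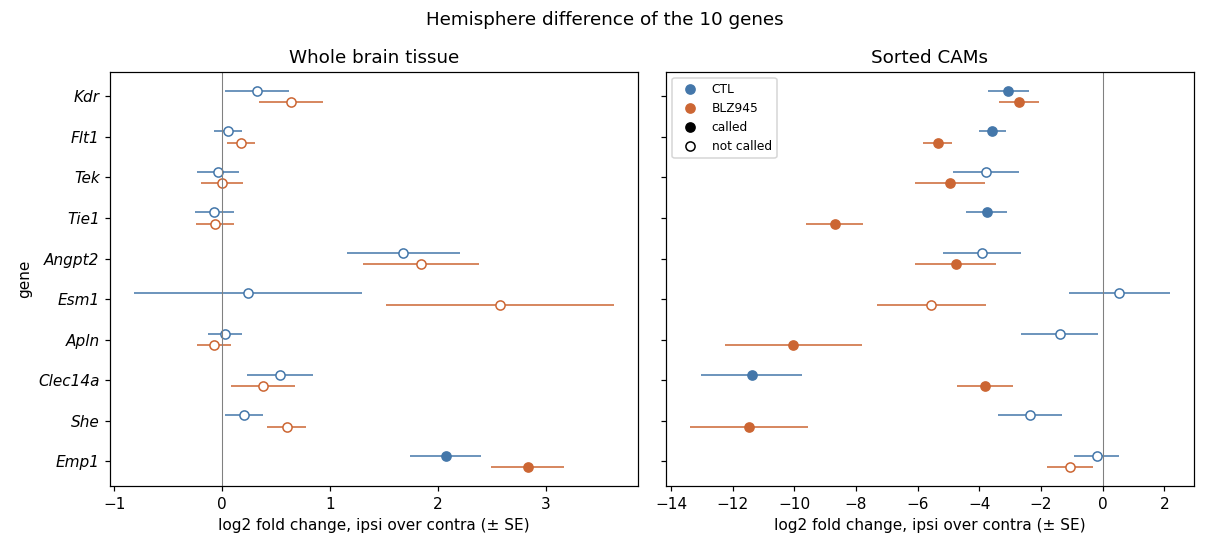
The horizontal axes give the log2 fold change, ipsilateral over contralateral, with its SE for each of the 10 genes on the vertical axis in tissue (left) and CAMs (right), blue for CTL and orange for BLZ945, filled where called. Emp1 and Angpt2 lie above 0 in tissue, most genes lie below 0 in CAMs, and values beyond -8 belong to genes at 0 or few counts in ipsilateral libraries, whose fitted size is no bound.

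Between treatments, none of the 10 genes was called by edgeR in CAMs. No gene of the table was called in the interaction, in ipsilateral or in contralateral CAMs between treatments (0% in each of the 3 comparisons), with 912, 1034 and 1133 genes at an unadjusted p under 0.05. DESeq2 called 48, 128 and 44 genes. Of the 10 genes it called 4 in the interaction (Tie1, Apln, Clec14a and She), 5 in ipsilateral CAMs (the same 4 and Flt1) and 1 in contralateral CAMs (Esm1). Flt1 was 17.1, 29.4 and 15.1 CPM in CTL and 8.04, 3.01 and 6.38 CPM in BLZ945 ipsilateral libraries, with no overlap, at a log2 difference of -1.81 (SE 0.42, edgeR adjusted p = 0.448). Tie1 was lower too in BLZ945 ipsilateral libraries, at 0 to 4 counts against 16 to 52, at an unadjusted p of 1.6e-04 and an adjusted p of 0.308 in edgeR. Clec14a had the opposite order, with 0 counts in all 3 CTL and in 1 of 3 BLZ945 libraries, and was called by edgeR without mouse C4 (adjusted p = 0.0409). The endothelial sum of these libraries was 464 to 876 CPM in CTL and 393 to 423 CPM in BLZ945 mice, and its part in these values was not tested.

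Other pathway genes were mostly lower in ipsilateral CAMs. Over both treatments, 4 of 8 ligands were called down. They were the angiopoietins Angpt1 and Angpt4, the lymphatic growth factor Vegfc and placental growth factor Pgf (-3.76, adjusted p = 0.00874 in edgeR). Vegfa was not called (-1.25, SE 0.72), and the treatments differed in direction. In CTL mice its means were 37.3 CPM ipsilaterally (2.08 to 87.1) and 27.6 CPM contralaterally, higher ipsilaterally in 2 of 3 mice. In BLZ945 mice they were 10.3 and 79.7 CPM, lower ipsilaterally in 3 of 3 mice. Of the receptors, Flt4 and the endothelial phosphatase Ptprb (-5.16, adjusted p = 3.2e-06 in edgeR) were called down. The co-receptors Nrp1 (0.87) and Nrp2 (1.44), which macrophages also express, were called up. Notch and guidance genes were called down in 9 of 15, with the Notch target Hey2 at 0 counts in all 6 ipsilateral libraries against 55 to 154 contralaterally, and the tip cell ligand Dll4 at 0 to 2 counts against 28 to 183. Of 16 tip cell genes 7 were called down, and of 9 CLEC14A partners and glycoproteins 6, among them Mmrn2, a known ligand of Clec14a (-5.06, adjusted p = 0.00143 in edgeR). With genes at the floor entered at their bound, list medians in CTL mice ran from -0.75 for the tip cell genes to -2.63 for the Notch and guidance genes, against -0.11 over all genes. In BLZ945 mice they ran from -0.59 to -3.10 for the same lists.

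Across libraries the 10 genes correlated less in tissue than in CAMs. The profile compared is the mean of the genes' standardised log2 CPM, and the correlations share libraries, depth and the hemisphere difference itself, so they are descriptions. Over 16 tissue libraries Emp1, Angpt2 and She correlated (r = 0.81 for Emp1 with She and 0.76 for Angpt2 with each of them), while Emp1 had r = 0.02 with Tek and -0.05 with Tie1. Over 14 CAM libraries Flt1 and Tie1 had r = 0.96, Flt1 and Tek 0.94 and She and Apln 0.97, and Emp1 had r between 0.02 and 0.47 with each of the other 9. The genes most like the profile were Erbin, Il6st, Cald1, Plekho2, Hspg2, Rrbp1, Dock1 and Tln1 in tissue (r = 0.92 to 0.89, over 14317 genes, with Esm1 too low to enter the profile). In CAMs they were Tyro3, Tpbg, Dll4, Igfbp3, Hey2, Pecam1, Rnf208 and Rsph1 (r = 0.97, over 13828 genes), of which Dll4, Hey2 and Pecam1 also stand in the lists above.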

How the data were processed

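Bulk RNA-seq of whole tissue and sorted CAMs from 8 mice was analysed. Per the labels and the submitters' processing notes, reads were handled with bcl2fastq 2.20, STAR 2.7.11a and featureCounts 2.0.8. The authors deposited raw read counts per gene, 1 table for tissue and 1 for CAMs, without normalization. The strand setting and the genome build of these libraries are not given in the sources used here, so overlapping genes on opposite strands cannot be told apart.

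Samples were grouped by treatment and hemisphere from the labels. The filter kept genes whose counts summed to at least 8 in tissue or 7 in CAMs. Each table was fitted with edgeR 4.0.16 (R 4.3.3) by the two-sided quasi-likelihood test with TMM and 1 mean per group, and p-values were adjusted over all genes by Benjamini-Hochberg. The fit was tested on simulated data. A difference was called at an adjusted p under 0.05 and a log2 fold change beyond 0.59. DESeq2 1.42.0, other size factors, filters, scaling to 19 pan-endothelial genes, leaving out each mouse and the mouse as a block were alternatives. Both hemispheres come from 1 animal, and same-mouse deviations correlated at r = 0.11 to 0.45 (8 pairs) in tissue and 0.04 to 0.15 (6 pairs) in CAMs. Folds against groups with at most 3 counts in every library are given as bounds, which cover counting error only. The labels give all libraries the same batch.

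The 10 genes, the gene lists and the alternatives were chosen with earlier results of these data known. Named from each list were up to 4 called genes of at least 1 CPM with the largest change, or else the 2 of lowest p, plus Vegfa, Pecam1, Cldn5 and Cdh5. Genes most like the profile are the 8 with the highest Pearson r.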

Additional observations from a re-analysis of the deposited data

Results flagged for a closer look

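In 4 of 60 groups of 4 libraries, 1 sample stood farther from the others than Dixon's critical value allows, where chance flags about 1 in 20 groups. Clec14a was 69.2 CPM in the contralateral CAMs of CTL mouse A3, against 23.1 to 28.4 CPM in the other mice, a library that also held the highest endothelial sum of all, 8370 CPM. Clec14a was 9.54 CPM in the ipsilateral tissue of BLZ945 mouse C2, against 4.31 to 4.94 CPM in the others. Apln was 30.3 CPM in the contralateral tissue of CTL mouse B1, against 38.3 to 38.8 CPM in the others. Esm1 was 0.0968 CPM, a single count, in the contralateral CAMs of CTL mouse A3, against 0 in the others.

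The left-out ipsilateral CAM libraries with degraded RNA held few counts of the 10 genes, 24 summed in CTL mouse A3 (0 to 9 per gene) and 10 in BLZ945 mouse C2 (0 to 4 per gene). No difference was drawn from them.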

How the results depend on the processing

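Counts of called genes among the 10 moved with the following settings. In CTL tissue (1 in the report) 2 were called with the mouse as a block, 2 in that block without both libraries of A3 and 0 with A3 exchanged, with or without the block. Leaving out 1 mouse gave 0 to 1, with 0 without A2, A3 or B1. In BLZ945 tissue (1) DESeq2 called 2, the block 3, the block without A3 3 and the exchange of A3 0, and 1 with the block. Leaving out 1 mouse gave 1 to 1. In the tissue average (2) the exchange gave 0, and 1 with the block, and leaving out 1 mouse gave 1 to 2, with 1 without A3 or C4. In CTL CAMs (4, all down) DESeq2 gave 6, no filter on low counts 5, scaling to endothelial genes 2 (Clec14a down, Emp1 up) and all 16 libraries 2, and leaving out 1 mouse gave 3 to 6. In BLZ945 CAMs (8, all down) DESeq2 gave 9, the block 4, all 16 libraries 6 and endothelial scaling 5 (Flt1, Tie1, Apln and She down, Emp1 up), and leaving out 1 mouse gave 3 to 8. In the CAM average (8, all down) endothelial scaling gave 5 (Flt1, Tie1, Clec14a and She down, Emp1 up) and leaving out 1 mouse 8 to 8. DESeq2 called 4 in the CAM interaction, 5 in ipsilateral and 1 in contralateral CAMs between treatments, where edgeR called 0. Without C4, 1 was called in ipsilateral CAMs between treatments, and the range over the mice was 0 to 1.

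Of the called values, only those of Kdr in CAMs changed sign, under endothelial scaling, to 0.93 in BLZ945 mice and 0.39 in the average. Among the log2 fold changes of the 10 genes under other settings, 1833 moved by less than the SE in the report and 119 by more, besides the 2 of Kdr. This tally counts the setting with no fold change threshold, whose values equal those of the report by construction. It also counts fits without a mouse of the other treatment, which keep every library of a within-treatment comparison. Values that were not called also changed sign in some settings, such as Emp1 in the CAM average, from -0.63 to 2.4 and called up under endothelial scaling. Under that scaling 11599 of 18297 genes were called up. The block could not be fitted between treatments, since each mouse had 1 treatment. The block combined with A3 exchanged or left out was added after the data had been seen. Where a count moved and no value shows the cause, the cause was not tested. Depth limits Esm1, at 69 counts over 16 tissue libraries, and the ipsilateral CAM values at 0. The whole-table counts in CTL CAMs were 510 in edgeR, 1775 in DESeq2, 293 with the block, 205 with all 16 libraries and 9936 under endothelial scaling, and in BLZ945 CAMs 1027, 2462, 949, 428 and 11117. Leaving out 1 mouse moved the whole-table counts to 139 to 612 in CTL CAMs and to 270 to 1219 in BLZ945 CAMs. In tissue such fits gave 24 to 87 in CTL and 79 to 218 in BLZ945 mice. In tissue, CTL and BLZ945 calls were 84 and 220 in edgeR, 139 and 349 in DESeq2, 185 and 414 with the block, and 0 and 6 with A3 exchanged. With the block and A3 exchanged they were 0 and 185.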
